A study of Mus musculus with 2 samples.

Results

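The probes described here stand for full-length mouse cDNAs that the array design lists only by a clone accession beginning with AK, with no gene name. A probe was taken when it was no control, when both name columns of the scanner files held the same AK accession, and when the files gave it a position on the mm8 mouse assembly. This rule found 3541 of the 41174 probes on the array, for 3522 different cDNAs. Of these, 3533 came from a full-length enriched RIKEN library, and their descriptions name 126 libraries, none of them a muscle library. Heart libraries supplied 91 and tongue libraries 4. The files call the product of 2815 unclassifiable and of 284 a hypothetical protein, and give a product name for 414. For comparison, 27002 placed probes carried a gene name, and 5727 of those lay within 50 kb of an unnamed cDNA probe.

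Full-length cDNA collections were made to capture each transcript from its cap to its poly(A) tail, and they hold coding messages together with long noncoding RNAs, antisense transcripts, retained introns, alternative 3' ends and fragments primed inside pre-mRNA. An unnamed cDNA beside a gene can therefore be a further exon or 3' end of that gene when it is read from the same strand, or a separate transcript such as an antisense RNA when it is read from the other. When skeletal muscle loses its nerve, it atrophies, and its ubiquitin ligases and embryonic acetylcholine receptor subunits are known to be induced.

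Gastrocnemius muscle, a mixed calf muscle made up mostly of fast fibres, was taken from wild-type male C57BL/6 mice aged 9 weeks. In the denervated group the muscle had been without its nerve for 14 days, from 7 weeks of age. The other group is labelled a sham control in one field and only a control in another, so whether those mice were operated on is unclear. RNA of 6 mice was pooled in each group and each pool was put on 1 array, so that no difference given here has a replicate check and none was tested. In such bulk samples fewer cells of a type and less RNA per cell cannot be told apart. Of 5 muscle fibre markers (Ckm, Acta1, Mylpf, Tnnt3 and Myh4), none differed 2-fold between the pools, with differences of -0.72 to -0.21 on the log2 scale. All 4 macrophage markers (Cd68, Lyz2, Csf1r and Adgre1, listed as Emr1) were at least 2-fold higher in denervated muscle, by 1.33 to 3.53.

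The files hold no probe sequences, but 3 of the cDNAs lie among the adult myosin heavy chain genes on chromosome 11. The sequences before those genes are shown because all 3 cDNAs differed over 2-fold between the pools while the genes did not. The runs below are the 250 bases before the start of Myh2, Myh1 and Myh4 on the plus strand, from RefSeq on GRCm38.p6, which is a later assembly than the mm8 of the probe positions. They cover chr11:67170777-67171026, chr11:67199852-67200101 and chr11:67237562-67237811. Capitals mark the longest run that all 3 share, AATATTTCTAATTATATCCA, and TATAAAA where it occurs.
Myh2: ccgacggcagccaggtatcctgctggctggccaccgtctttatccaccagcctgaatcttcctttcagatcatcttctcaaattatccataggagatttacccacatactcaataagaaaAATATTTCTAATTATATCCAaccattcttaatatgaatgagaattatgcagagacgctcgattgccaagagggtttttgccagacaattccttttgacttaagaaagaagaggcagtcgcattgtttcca
Myh1: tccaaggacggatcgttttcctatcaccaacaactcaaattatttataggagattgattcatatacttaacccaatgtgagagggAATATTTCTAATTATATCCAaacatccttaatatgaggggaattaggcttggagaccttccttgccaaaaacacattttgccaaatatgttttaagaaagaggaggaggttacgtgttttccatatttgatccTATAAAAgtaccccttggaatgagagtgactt
Myh4: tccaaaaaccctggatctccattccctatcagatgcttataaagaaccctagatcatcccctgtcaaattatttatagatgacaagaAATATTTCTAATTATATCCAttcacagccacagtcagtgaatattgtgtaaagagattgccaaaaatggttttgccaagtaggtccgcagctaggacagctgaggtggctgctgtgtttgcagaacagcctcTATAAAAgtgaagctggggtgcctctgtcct
The shared run is 20 bases long and begins 130, 165 and 163 bases before the start of Myh2, Myh1 and Myh4. On either strand it was found in 3 of 32851 promoter windows of 250 bases, which were those of Myh2, Myh1 and Myh4. The run was picked from these 3 windows, so their matches were fixed in advance and no meaning is read from the count. The letters TATAAAA begin 32 bases before Myh1 and 31 before Myh4, and are in 4.98% of all the windows on either strand. These matches describe letters and show no binding.

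Most unnamed cDNA probes were dim. Signals are given with 100 as the 75th percentile of the array's probes, and a log2 difference is denervated minus control with the scanner software's spot error after ±. This error is technical, and holds no spread between mice. Of the 3541 probes, 43.5% were well above background in control muscle and 39.9% in denervated muscle, against 77.3% and 75.3% of the named probes. In all, 1314 were measured, which means a signal well above background and below saturation on each array. A further 228 were above background in the control pool only, 99 in the denervated pool only, and 1900 in neither. The median signal of the measured probes was 10.2 in control and 8.62 in denervated muscle, where named probes had 63.7 and 63.3.

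Among the 1314 measured probes, 42 had a denervated signal at least 2-fold above the control signal and 147 one at least 2-fold below it. That is 3.20% higher, where 6.43% of all measured probes on the array were higher, and 11.2% lower, where 8.22% of all were lower. At 4-fold, 6 of the 1314 were higher and 21 lower, where 364 and 404 of all 27251 measured probes were. The median difference was -0.28, against -0.07 for named probes and -0.11 for all measured probes, and 71.9% of the unnamed cDNA probes but 54.9% of the named ones lay below 0. The differences ranged from -4.15 to 3.42. At the edge of the threshold, AK084897 (1.001) and AK052617 (-1.003) were just inside, and AK046930 (0.999) and AK034992 (-0.99) just outside.

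The lean towards the control pool depended in size and direction on how the arrays were scaled. Of the probes past 2-fold, 77.8% were lower under the 75th percentile, 66.5% after loess centring, 43.2% with spike-in scaling and 39.6% with no scaling. The median itself turned to 0.12 with spike-in scaling and 0.15 with none. The last 2 scalings shift all probes alike, and the median of all measured probes became 0.28 and 0.32. Relative to the median of the named probes, the median of the unnamed cDNA probes stood at -0.21 with the 75th percentile, spike-in scaling and no scaling, and at -0.11 after loess centring or quantile normalization. With dim probes kept, it stood at -0.01.

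**Figure D1:**
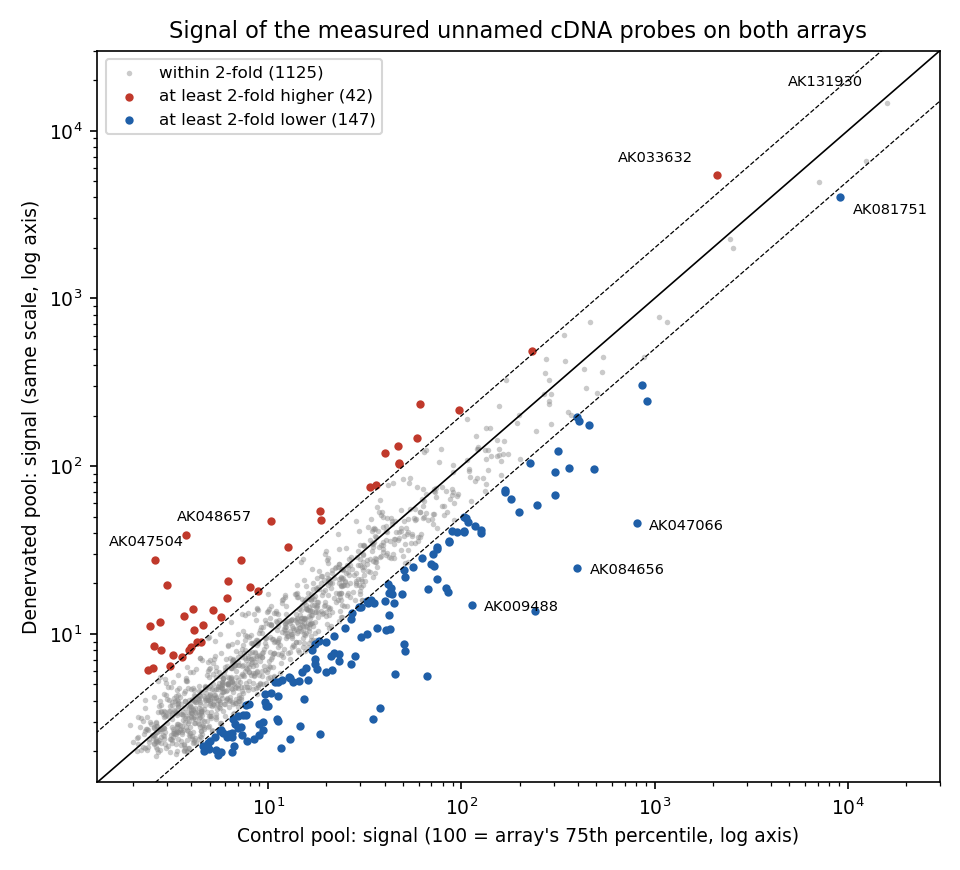
Signal of each measured unnamed cDNA probe in the control pool (x axis) and the denervated pool (y axis), both on log axes with 100 as the array's 75th percentile; the solid line marks equal signal and the dashed lines 2-fold. Of the 42 higher probes (red) only AK033632 lies above 1000 on both arrays, and of the 147 lower ones (blue) only AK081751 does.

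Banded by mean signal, the share of lower probes was larger among brighter ones. It was 7.55% of 384 probes with a mean signal under 5, 9.40% of 298 between 5 and 10, 12.02% of 366 between 10 and 30, 15.1% of 185 between 30 and 100, and 22.2% of 81 at 100 or more. The named probes showed no such gradient: 7.86%, 9.16%, 7.86%, 7.03% and 7.13% of them were lower in the same bands. In the 2 dimmest bands the medians of unnamed and named probes were close, at -0.24 and -0.29 under 5 and -0.28 and -0.27 from 5 to 10. From 100 upwards they were -0.42 and -0.00. These bands were formed by the mean signal of both arrays, and the gradient was not tested. Of the 62 unnamed cDNA probes with a signal of at least 100 on each array, 8 were lower and 2 higher, with a median of -0.27, and of the 228 with at least 30 on each, 32 were lower and 11 higher, with a median of -0.24. A minimum on each array leaves out probes that are dim in one pool, so these counts cannot show what the gradient depends on. Named probes were not counted with that minimum.

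**Figure D2:**
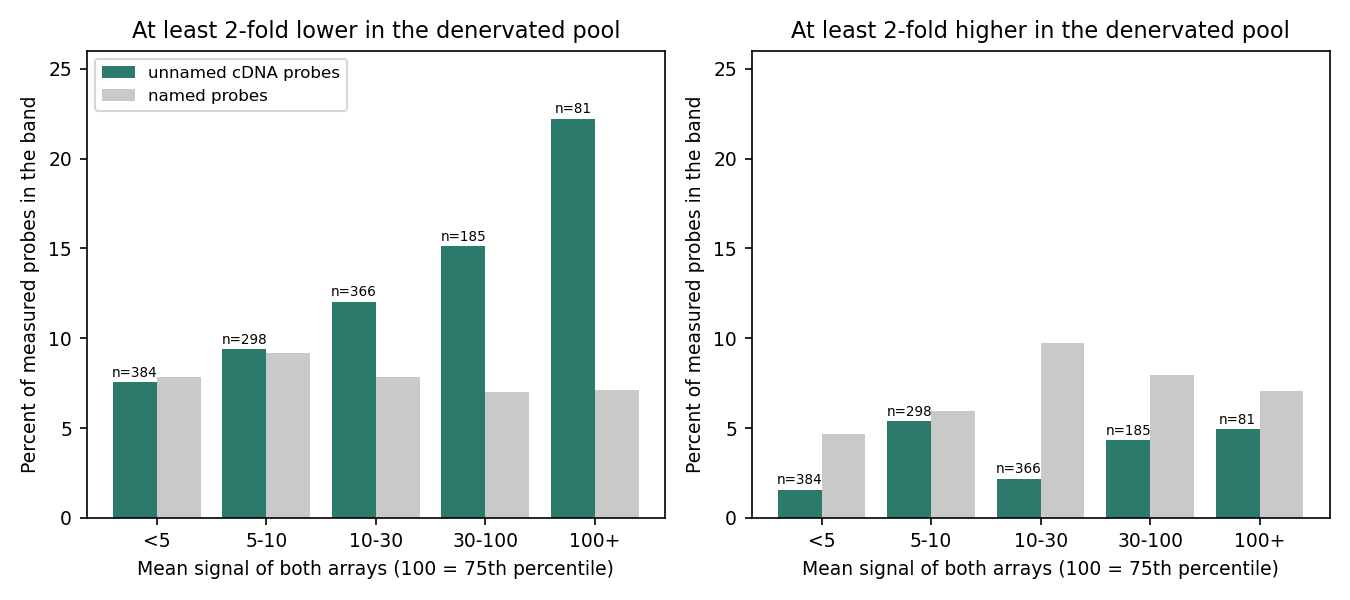
Percent of measured probes at least 2-fold lower (left) and at least 2-fold higher (right) in the denervated pool, by mean signal of both arrays, for unnamed cDNA probes (green, n above each bar) and named probes (grey). The green bars for lower probes climb from 7.55% to 22.2%, and the grey bars stay between 7.03% and 9.16%.

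The highest of all was AK047504, a cDNA from neonatal cerebellum at chr1:68788061-68788120 on the minus strand, with no named probe within 50 kb. Its signal was 2.58 in control and 27.5 in denervated muscle, a difference of 3.42 ± 0.29. It was one of 4 unnamed cDNA probes in a run of 61.9 kb, and the other three were not measured on both arrays. AK048657 followed, at chr17:71145002-71145061 on the plus strand, between probes of Lpin2, whose product is a phosphatidate phosphatase of lipid synthesis. It went from 3.73 to 38.6, and its description calls it unspliced DNA of lipin 2. Its difference of 3.37 ± 0.25 sits beside 4.17 ± 0.34 for the Lpin2 probe 6.28 kb away on the same strand, which went from 2.42 to 43.6. A second cDNA whose product is named lipin 2, AK165218, was above background in the denervated pool only, at 19.3 against 1.45, which makes it at least 10.5-fold higher.

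Several other high probes had no measured named neighbour. AK050569, from pancreatic islet cells, went from 2.98 to 19.5 (2.72 ± 0.27), and AK049918, from hippocampus, from 10.4 to 47.1 (2.18 ± 0.21). AK031058, from embryonic forelimb, lies between probes of Runx2, a transcription factor of bone formation, on the same strand, and went from 2.45 to 11.1 (2.18 ± 0.30). AK048779 and AK047848 differed by 2.09 ± 0.29 and 1.95 ± 0.22. These probes were dim in the control pool, at 2.45 to 10.4 for the 6 probes named so far without a measured neighbour. AK144717 was brighter, from 61.1 to 234 (1.94 ± 0.20), while the nearest measured named probe, Cabp2, lay 22.3 kb away on the other strand and was dim on both arrays (2.30 and 2.01).

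AK041268 lay between probes of Rb1, the retinoblastoma cell cycle inhibitor, on the same strand. It went from 3.64 to 12.7, a difference of 1.81 ± 0.25, next to 1.76 ± 0.24 for Rb1. AK027992, by contrast, went from 4.08 to 14.0 (1.78 ± 0.25), while Galnt5, 5.47 kb away on the same strand, differed by -0.47 ± 0.21. So a probe on the same strand a few kb from a gene's probe could match it or part from it. Over the alternatives of scaling, background, value table and spots, AK031058, AK048779, AK041268 and AK027992 came down to 0.65, 0.61, 0.61 and 0.66, under 2-fold, while the rest of the 10 highest stayed past it.

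The lowest was AK047066, a cDNA from neonatal cerebellum at chr5:116300448-116300507 on the minus strand, whose signal was 808 in control and 45.5 in denervated muscle. The difference was -4.15 ± 0.20, while Prkab1, a regulatory subunit of the energy sensor AMPK whose probe lies 25.3 kb away on the same strand, went from 66.6 to 80.8 (0.28 ± 0.20). AK084656, from embryonic heart, at chr15:102968238-102968297 on the plus strand, went from 397 to 24.6 (-4.01 ± 0.21). Its nearest measured named probe, Smug1, which encodes a uracil DNA glycosylase, was 13.5 kb away on the opposite strand and stood at 71.3 and 74.4. Both cDNAs were bright in control muscle, and the measured gene nearest to each was within 2-fold.

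Other low probes did go with their neighbours. AK053780, whose description names triosephosphate isomerase, lies 2.71 kb from the probe of Tpi1, the glycolytic enzyme of that name, on the same strand. It went from 66.7 to 5.58 (-3.58 ± 0.23), and Tpi1 from 29266 to 3042 (-3.27 ± 0.20). AK084367 names a pentaxin related gene and lies 4.68 kb from a probe of Ptx3, a secreted pattern recognition protein, but on the opposite strand. It went from 241 to 13.7 (-4.13 ± 0.21) and Ptx3 from 133 to 21.2 (-2.65 ± 0.21).

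The remaining low ones had little beside them. AK050786 went from 35.0 to 3.11 (-3.49 ± 0.27), with Rab7, a late endosome GTPase, 41.2 kb away at -0.49 ± 0.20. AK053200 (38.0 to 3.62, -3.39 ± 0.28), AK083715 (45.5 to 5.77, -2.98 ± 0.23) and AK053717 (18.6 to 2.54, -2.87 ± 0.30) had no named probe within 50 kb. These were the 3 lowest among such isolated probes.

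**Figure D3:**
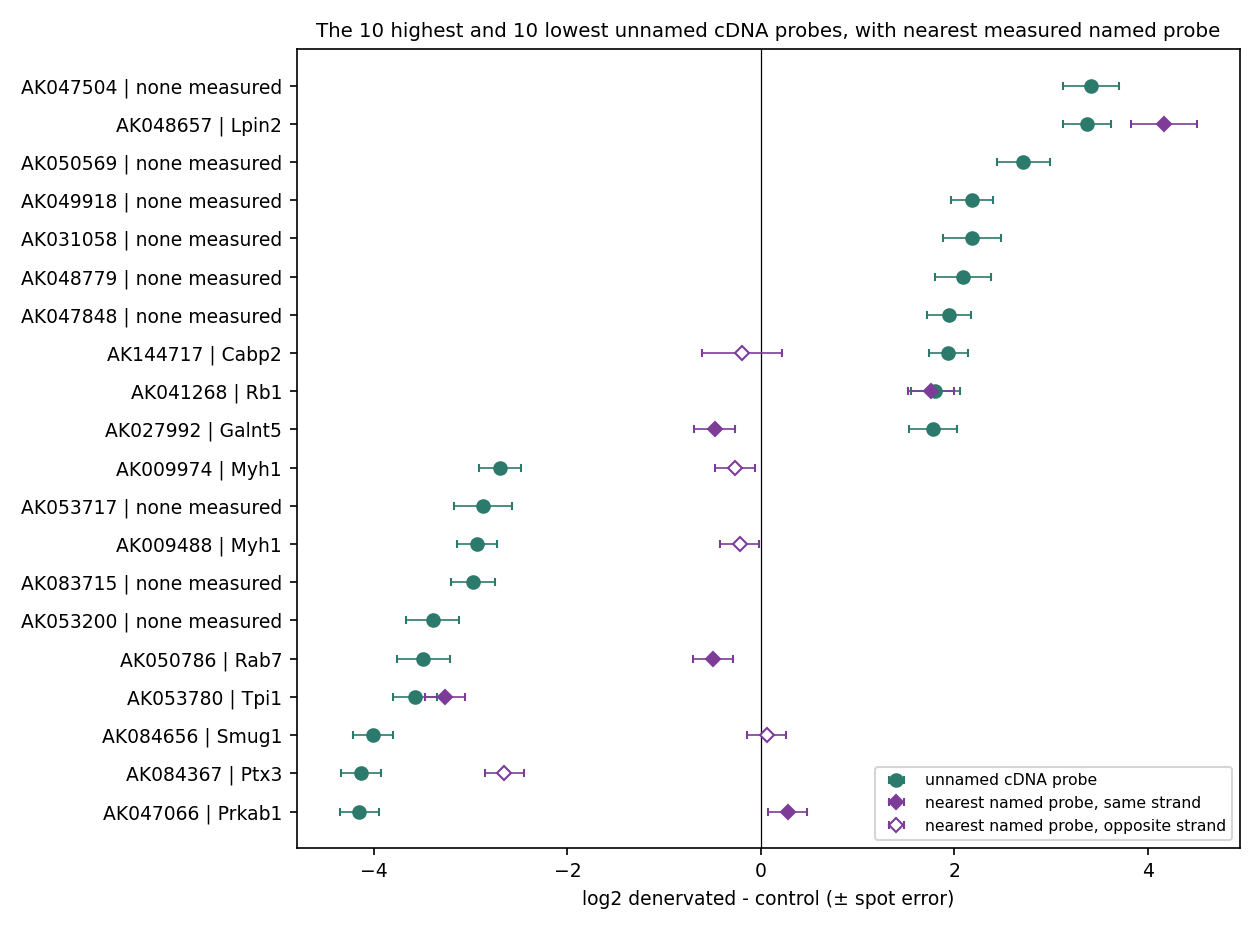
Log2 difference, denervated minus control, of the 10 highest and 10 lowest unnamed cDNA probes (green circles) and of the nearest measured named probe within 50 kb (diamonds, filled for the same strand and open for the opposite strand); bars are the technical spot error. AK048657, AK041268 and AK053780 lie by their neighbours, and AK047066, AK084656 and both cDNAs at Myh1 lie far from theirs.

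Within the myosin cluster, 2 cDNAs from adult tongue were read from the strand opposite to the myosin genes. AK009488 lies at chr11:67027858-67027917 on the minus strand, 1.23 kb from a Myh1 probe and between probes of that gene. It had 113 in control and 14.8 in denervated muscle, a difference of -2.93 ± 0.21. AK009974 lies at chr11:67040695-67040754 on the minus strand, 5 bases from the other Myh1 probe, and had 51.1 and 7.88, a difference of -2.70 ± 0.22. Its description names myosin heavy polypeptide 1. The cDNAs were thus 7.64-fold and 6.49-fold lower in denervated muscle.

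The probes of the myosin genes themselves were within 2-fold. Myh1, the fast type 2X heavy chain, went from 25851 to 21475 at one probe (-0.27 ± 0.20) and from 529 to 454 at the other (-0.22 ± 0.20). The 3 probes of Myh2, the 2A heavy chain, differed by -0.31 to -0.17. Myh4, the 2B heavy chain, differed by -0.30 ± 0.20 at its unsaturated probe. The other cDNA of the cluster was higher: AK036437, described as similar to Myh2 and lying 18.7 kb before the first Myh2 probe on the plus strand, had 47.3 and 102 (1.11 ± 0.20). Over the alternatives of scaling, background, value table and spots its difference ran from 0.98 to 1.55, so that it was not past 2-fold in all of them, while AK009488 ran from -3.04 to -2.50 and AK009974 from -2.80 to -2.01.

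**Figure D4:**
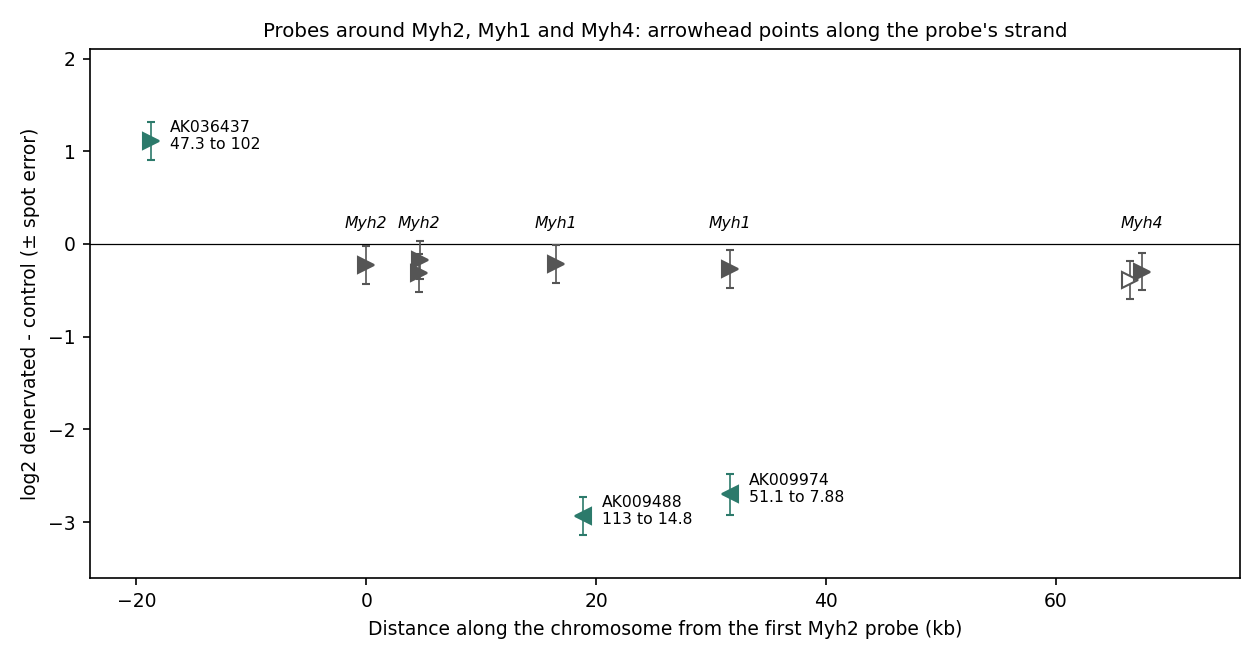
Log2 difference, denervated minus control, of every probe from 20 kb before the first Myh2 probe to 20 kb after the last Myh4 probe, by distance from the first Myh2 probe in kb; arrowheads point right for the plus strand and left for the minus strand, green marks unnamed cDNAs with their signal in control and denervated muscle, grey marks named genes, the open symbol is saturated, and bars are the technical spot error. Both minus-strand cDNAs lie below -2.5 while the myosin probes lie between -0.39 and -0.17.

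Beyond these examples, 872 measured unnamed cDNA probes had a measured named probe within 50 kb, for 791 gene symbols. Of these, 65.6% lay on the same side of 0 as that neighbour, and the median gap between both differences was 0.38. For 12660 named probes and the nearest probe of another gene, the figures were 54.1% and 0.58. Those of the unnamed cDNA probes differed by strand. With the neighbour on the same strand (694 probes), 67.6% were on the same side, with a gap of 0.33 and a Pearson correlation of 0.53. With the neighbour on the opposite strand (178 probes), 57.9% were on the same side, with a gap of 0.53 and a correlation of 0.17. All these correlations are across probe pairs on the same 2 arrays, which are no replicates, and are given without a test.

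On the same strand the figures varied with distance. The correlation was 0.68 over 169 pairs within 5 kb, 0.60 over 127 pairs from 5 to 10 kb, 0.61 over 161 from 10 to 20 kb and 0.33 over 237 from 20 to 50 kb. As a scale, named probes and the nearest probe of the same gene on the same strand within 50 kb gave 0.75 over 11871 probes, with 77.1% on the same side and a median gap of 0.21. Named probes and the nearest probe of another gene on the same strand gave 0.19 over 5641, and on the opposite strand 0.07 over 7019. Of these, 56.6% on the same strand and 52.2% on the opposite strand were on the same side, with median gaps of 0.56 and 0.60. By distance on the same strand, probes of different genes gave 0.46 over 737 within 5 kb, 0.27 over 871 from 5 to 10 kb, 0.22 over 1400 from 10 to 20 kb and 0.07 over 2633 from 20 to 50 kb, so that they too were closer to each other at short distance. Unnamed cDNA probes on the same strand thus lay between probes of one gene and probes of different genes, and those on the opposite strand lay nearer the latter. Within 5 kb on the opposite strand, unnamed cDNA probes gave 0.26 over 69 pairs and probes of different genes 0.004 over 2511. Among unnamed probes with a mean signal of 10 or more the figures within 50 kb were 0.63 on the same strand (339) and 0.26 on the opposite strand (98). Named probes were not filtered in that way.

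Probes inside a gene's span differed by strand in the same way. Of the 3541 probes, 673 lay between the outermost probes of a named gene, and 274 of these were measured. For 248 on the same strand as that gene with a measured value for it, the correlation with the gene's median difference was 0.69 and 71.8% were on the same side. For 21 on the opposite strand it was 0.14, and 57.1% were on the same side.

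**Figure D5:**
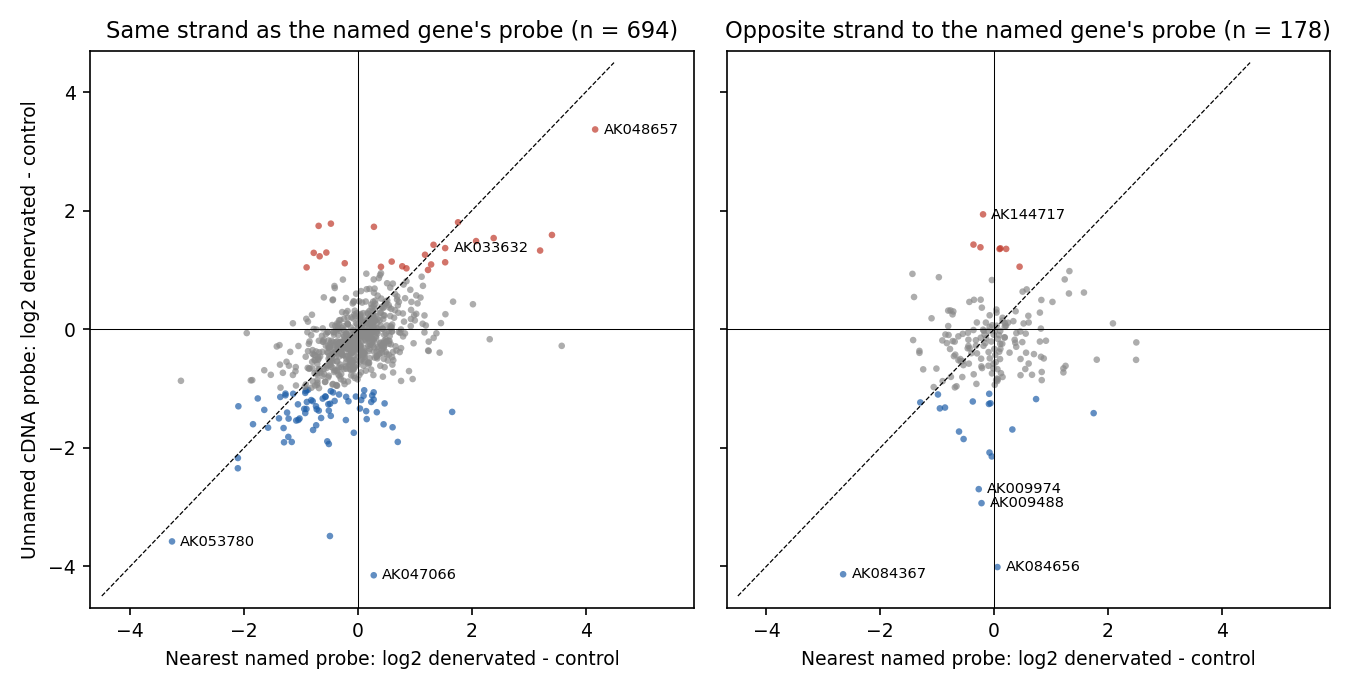
Log2 difference of each measured unnamed cDNA probe (y axis) against that of its nearest measured named probe within 50 kb (x axis), split by strand into 694 pairs on the same strand (left) and 178 on the opposite strand (right); red and blue mark probes at least 2-fold higher and lower, and the dashed line marks equal differences. The left cloud leans along the line, and on the right all 7 red points have a neighbour within 1.5-fold, while AK084367 is far from 0 on both axes.

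Of the 189 probes past 2-fold, 125 had a measured named neighbour, and 94 of those were on its side of 0. The neighbour itself was past 2-fold in the same direction for 37 and in the opposite direction for 2. Of 1772 named probes past 2-fold, 1028 were on the side of 0 of the nearest probe of another gene. That probe was past 2-fold the same way for 259 and the opposite way for 115. Of 1613 with another probe of their own gene, 1491 were on its side, and it was past 2-fold the same way for 978 and the opposite way for 7. For unnamed cDNA probes, a neighbour past 2-fold the same way was found by strand as follows. It was so for 12 of 24 higher and 23 of 75 lower probes on the same strand, and for 0 of 7 higher and 2 of 19 lower probes on the opposite strand. The genes given next were picked from these pairs after their values were seen.

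Most of these pairs were lower together, but under this scaling 147 of all 189 unnamed cDNA probes past 2-fold were lower. The neighbour was past 2-fold the same way for 25 of 94 lower probes and 12 of 31 higher ones. Nothing particular to the pairs is read from their direction. AK086147 went from 488 to 96.0 (-2.35), with Ampd1, the muscle AMP deaminase, 1.14 kb away on the same strand at -2.11. AK084349 went from 304 to 67.6 (-2.17) between probes of Mbnl1, a splicing regulator, at -2.11, and AK083355 from 913 to 244 (-1.91) between probes of Pde4d, a cAMP phosphodiesterase, at -1.30. These 3 cDNAs were among the brighter ones in control muscle. AK038517, whose product is named acetyl-Coenzyme A synthetase 2, went from 16.1 to 5.31 (-1.60) and lay 18.4 kb from Acss1, a mitochondrial acetate-activating enzyme, at -1.84, and AK041561 (11.2 to 4.23, -1.41) lay 11.8 kb from Mpc2, a subunit of the mitochondrial pyruvate carrier, at -1.24. With no scaling, which shifts all probes upwards, AK041561 and the probes of Mpc2 and Pde4d would come under 2-fold.

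Fewer pairs were higher together. AK048349 went from 40.01 to 121 (1.59), with Sik1, a salt-inducible kinase, 7.85 kb away on the same strand at 3.41. AK044272 went from 46.9 to 132 (1.49) with Arrdc3, an arrestin domain protein, at 2.08, and AK033152 from 18.6 to 54.1 (1.54) with Ubxn4, a protein of endoplasmic reticulum-associated degradation, at 2.39. In each of these the cDNA differed by less than the gene.

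Where a cDNA and its neighbour went apart, the gap reached -4.43 for AK047066. Besides AK047066 and AK084656, the widest gaps below a neighbour belonged to AK037292, AK040775 and AK039972. AK037292 stood at 4.90 and 4.04 (-0.28 ± 0.28), with Tgif1, a transcriptional repressor, at 3.58 ± 0.21 and 46.7 kb away. AK040775 went from 6.48 to 2.43 (-1.42 ± 0.36) with Riok2, a kinase of ribosome maturation, at 1.75 ± 0.20. AK039972 went from 17.4 to 6.63 (-1.39 ± 0.22) with Nckap1l, a haematopoietic actin regulator, at 1.66 ± 0.21. The last 2 pairs were the 2 cases in which the cDNA and the gene were past 2-fold in opposite directions. With no scaling AK040775 came to -0.98 and AK039972 to -0.96, and with normexp to -0.83 and -0.99, so that neither was then past 2-fold.

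The widest gaps above a neighbour, besides AK144717 and AK027992, belonged to AK052254, AK081375 and AK051921. AK052254 went from 6.16 to 20.6 (1.75 ± 0.23), with Cbfb, the shared partner of the Runx factors, at -0.69 ± 0.21 and 45.9 kb away. AK081375 went from 65.6 to 125 (0.94 ± 0.20), with Igf2bp3, a dim probe on the opposite strand, at -1.43 ± 0.30. AK051921 was lower itself, from 10.2 to 5.56 (-0.87 ± 0.24), but 20.7 kb away Itpr1, a calcium release channel, went from 1460 to 169 (-3.11 ± 0.20).

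The 5 brightest unnamed cDNA probes are given next, without comparing signals between probes, since a probe's signal also depends on its sequence. AK131930, from embryonic stem cells, was brightest, at 16085 and 14646 (-0.14 ± 0.20), and its position spans 35 bases where most span 60. AK033351 had 12383 and 6611 (-0.91 ± 0.20) with no named probe within 50 kb. AK081751 lies 2.30 kb from Jph1, the junctophilin that couples the T-tubule to the sarcoplasmic reticulum, on the same strand. It had 9162 and 4003, a difference of -1.19 ± 0.20, and Jph1 differed by -0.82 ± 0.20. AK006763, which the files call a possibly chimeric clone, had 7069 and 4921 (-0.52 ± 0.20).

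The last of the 5 was AK033632, 2.30 kb from the probe of Fbxo32 on the same strand, at chr15:58007919-58007978 on the minus strand. Fbxo32 encodes atrogin-1, a ubiquitin ligase subunit of muscle atrophy. AK033632 went from 2119 to 5476 (1.37 ± 0.20) and Fbxo32 from 1515 to 4389 (1.53 ± 0.20). Of 7 unnamed cDNA probes with a signal of at least 1000 on both arrays, it was the only one at least 2-fold higher, and AK081751 was the only one at least 2-fold lower. AK081751 came to -0.80 with spike-in scaling and -0.76 with none, under 2-fold.

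A list of genes known in denervated muscle or its contractile apparatus was set beside the unnamed cDNAs. Of its 68 symbols, 66 had a probe and 17 had an unnamed cDNA probe within 50 kb, for 24 such probes, 14 of them measured. Of these 14, 2 were higher (AK033632 and AK036437) and 5 lower, where 6.43% and 8.22% of all measured probes were, and nothing particular to the list is read from so few. The lower ones were both minus-strand cDNAs at Myh1, both cDNAs inside Ttn, and AK051199. Inside Ttn, the gene of the giant sarcomere spring protein, AK049540 went from 14.5 to 5.25 (-1.46 ± 0.24) and AK047868 from 103 to 50.04 (-1.04 ± 0.20). The nearest Ttn probe differed by -0.48 ± 0.20 and the brightest by -0.30, so neither was past 2-fold. AK051199, which names the scaffold protein of its neighbour Grasp, went from 74.4 to 33.1 (-1.17 ± 0.21), and came to -0.77 with spike-in scaling and -0.74 with none, as AK047868 came to -0.65 and -0.61. Grasp was at -0.62 ± 0.21 and the brightest probe of Nr4a1, an orphan nuclear receptor 48.9 kb away, at -3.63.

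Some landmark genes that differed strongly had neighbours that did not. Chrnb1, an acetylcholine receptor subunit, went from 119 to 513 (2.11), and AK051012, 27.8 kb away on the same strand, stood at 36.2 and 38.0 (0.07 ± 0.21). Ncam1, a cell adhesion molecule of the muscle surface, was at 3.33 at its brightest probe. Of 3 cDNAs on its opposite strand within 5 kb, AK036529 had 2.56 and 2.20 (-0.22 ± 0.42) and the other two were not well above background on either array. Smox, spermine oxidase, was at -3.76 while AK034299, 38.1 kb away on the same strand, was at -0.32 ± 0.35. These cDNAs were dim, except AK051012.

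Others moved out of or into the measured range with the gene. AK050073, whose description names the hepatic enzyme that makes and breaks down fructose-2,6-bisphosphate and which lies 20.5 kb from Pfkfb1 on the same strand, had 20.6 in control muscle and was not well above background in the denervated pool, which puts it at least 12.2-fold lower. Pfkfb1, which encodes an enzyme of that kind, went from 1696 to 98.3 (-4.11). AK037708, 3.62 kb from a probe of Runx1, a transcription factor of denervated muscle, on the same strand, was not well above background in the control pool and had 6.80 in the denervated pool, at least 3.69-fold higher. The brightest Runx1 probe was at 6.02.

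Of the 228 probes above background in the control pool only, 65 were lower in the denervated pool by a bound of at least 2-fold, which is 28.5%, where all probes of the array of that kind gave 31.6%. The largest bounds belonged to AK039132, AK036061 and AK050073. AK039132, from hypothalamus, had 27.4 in the control pool and AK036061, from cerebellum, 22.7, and they were at least 16.3-fold and 13.5-fold lower. Of the 99 above background in the denervated pool only, 33 had a bound of at least 2-fold, or 33.3%, where all probes of that kind gave 37.8%. AK134517 had 23.1 there and AK089609, between probes of Itpr2, 16.4, so that they were at least 12.5-fold and 8.90-fold higher. These shares were close to those of the whole array, and nothing is read from them.

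Unnamed cDNA probes formed 2987 loci, defined as runs in which each lies within 50 kb of the next, and 442 loci held more than 1. Only 7 held 2 probes past 2-fold in one direction, and in each the direction was lower. Under this scaling 147 of all 189 unnamed cDNA probes past 2-fold were lower, so nothing particular to loci is read from that direction. The first was Homer1, which encodes a synaptic scaffold protein also present in muscle. AK047247 went from 200 to 53.4 (-1.90 ± 0.20) and AK035139 from 40.4 to 15.7 (-1.36 ± 0.21), beside -1.16 ± 0.20 and -1.64 ± 0.20 at their nearest Homer1 probes. At Phka1, the muscle phosphorylase kinase subunit, AK078633 went from 108 to 46.2 (-1.23 ± 0.20) and AK035307 from 399 to 196 (-1.02 ± 0.20), beside -0.90 ± 0.20 for the gene. Of these 4 cDNAs, AK047247 alone stayed past 2-fold under every alternative of scaling, background, value table and spots. The myosin cluster was another, with its 2 minus-strand cDNAs.

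Probes far from named genes also lay lower in denervated muscle on balance. Of 1371 unnamed cDNA probes with no named probe within 50 kb, 28.7% were measured, against 42.4% of those with one. The 393 measured ones had a median of -0.36, with 11 higher and 48 lower. That is 2.80% higher and 12.2% lower, where 6.43% and 8.22% of all measured probes on the array were. Spike-in scaling and no scaling shift all probes upwards alike, and turned the median of all measured unnamed cDNA probes to 0.12 and 0.15. The median of these 393 was not computed under them, but the same shift would turn it positive too. Those with a measured neighbour on the same strand had a median of -0.26 and 10.8% lower, and those with one on the opposite strand -0.24 and 10.7% lower.

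The origin of the clone made little difference to the median. It was -0.28 for 347 measured probes from adult libraries, -0.28 for 418 from embryonic ones and -0.29 for 499 from neonatal ones. By tissue it ranged from -0.21 (lung, kidney, bladder, gut, liver and pancreas) to -0.31 (eye, and brain and nerve). Libraries of thymus, spleen and other immune tissue gave 237 measured probes, of which 7 were higher and 13 lower. The latter are 5.49%, where 8.22% of all measured probes on the array and 11.2% of the measured unnamed cDNA probes were lower. The share was 13.2% for brain and nerve, 16.7% for eye and 18% for 50 measured probes of other tissues. In the remaining tissue groups it was 10.6% to 12.5%. The macrophage markers given above were higher in denervated muscle, while the T and B cell markers Cd3e (-0.55 ± 0.21) and Cd79b (-0.39 ± 0.23) were lower. The part of such cells in the counts of the immune libraries was not tested.

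For 19 cDNAs the array carried more than 1 probe, which bears on how well a single probe speaks for its cDNA. In 9 of them both probes were measured, 6 of these had both on one side of 0, and the median gap was 0.24. The widest gap was 0.98, for AK031518, whose probes were at -0.77 and 0.21. None of the probes in these 9 pairs was past 2-fold.

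Some clones have since received names. The RefSeq table of GRCm38.p6 lists the clone of 59 of these probes on the same chromosome, 51 as protein coding genes and 7 as long noncoding RNAs, and 20 of the 59 were measured. One is Mhrt, a long noncoding RNA transcribed opposite to the heart myosin genes, represented by AK052874. It had 12.2 and 10.6 (-0.21 ± 0.22), while the nearest probe of Myh7, the slow heavy chain, was at -0.69.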

How the data were processed

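Total RNA of gastrocnemius was labelled with Cy3 and hybridised to 1 Agilent 1-colour array per pool, both on 1 slide, so group and position on the slide cannot be told apart. The spot intensity values of the deposited scanner files were made with Feature Extraction (9.5 per the submitters' notes, 9.5.3.1 per the file headers), already corrected for background and not scaled between arrays. The authors also deposited a value table of whole numbers, used here as a score in 1 alternative: set against the scanner intensity, it is the same value scaled so that each array's 75th percentile is 100, with column medians of 10 and 9.

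Spots marked as outliers were left out (87 control, 81 denervated, none of an unnamed cDNA), spots of a probe were averaged on the log2 scale, and each array was divided by its 75th percentile (788 and 1063) of the processed intensity. Probes above background on 1 array only received a bound against the higher of the dim signal and that array's lowest well-above-background signal (1.84 control, 1.68 denervated). Distances run between nearest probe ends. Strand was read from the order of start and end in the files and checked against RefSeq, which gave the same strand for 98.9% of 20564 named probes. Named neighbours exclude accession, clone and predicted names, and symbols were updated through RefSeq. Counts of 2-fold differences and medians were described with no test, since each group has 1 array. The 45 probes named by rule are the 10 highest and 10 lowest, the 3 largest bounds in each direction, the 5 brightest, the 5 widest gaps to a neighbour in each direction, the 3 highest and 3 lowest isolated ones, the 3 loci with most calls and those past 2-fold near a listed gene. Members, lists and rules were chosen with earlier results of these data known. The counting was tested on simulated differences with the technical spot error as the only noise, so that test holds no spread between mice. The neighbour search was checked against a direct search at real probe positions. Alternatives covered scaling, background (normexp with offset 50 in limma 3.58.1, R 4.3.3), the deposited score, dim probes and neighbour rules, and the rest ran in Python 3.11.15 with pandas 2.3.3. Sequences of the probes were not used here.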

Additional observations from a re-analysis of the deposited data

How the results depend on the processing

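Counts and medians describe 2 arrays and have no replicate check. No paired analysis was possible because each group holds 1 pooled sample. The median of -0.28 turned positive with spike-in scaling (0.12) and with no scaling (0.15), and the cause was not tested beyond the shift of all probes given with the results. The numbers of higher and lower probes were 92 and 70 with spike-in scaling, 96 and 63 with no scaling, and 16 and 80 with normexp (offset 50). With no filter on dim probes they were 152 and 495 of 3541. With signals at least 4 times the lowest well-above-background signal they were 17 and 81 of 690. They were 11 and 48 among probes at least 50 kb from any named probe, 6 and 21 at 4-fold, and 95 and 354 at 1.5-fold. Of all probes, 13.8% were higher and 3.88% lower with spike-in scaling, 14.7% and 3.62% with no scaling, and 4.04% and 5.35% with normexp. The shares of all probes were 6.62% and 11.4% with no filter, and 6.27% and 7.35% with the stricter filter. In each of these settings a smaller share of unnamed cDNA probes was higher, and a larger share lower, than of all probes. All probes were not counted at 1.5-fold. The share on the neighbour's side of 0 was 65.6% (exact 95% binomial interval 62.3 to 68.7, for counting error only). It became 70.2% with spike-in scaling, 72.5% with no scaling, 62.1% with no filter on dim probes, 69.8% with the stricter filter, 57.0% against opposite-strand probes only, and 75.2% for probes past 2-fold, whose median gap was 0.80. Spike-in scaling and no scaling shift all probes the same way, and the share for pairs of named probes was not computed under them. The median was closer to 0 with quantile normalization (-0.10), loess centring (-0.08) and no filter on dim probes (-0.09). Under the other alternatives run, these results kept their direction, with counts within 1.5 times those reported. Of 33 measured probes named by the rule that were past 2-fold, 19 stayed so under all 9 alternatives of scaling, background, table and spots, and none of the 33 changed sign. Dim signal limits most of these probes: 1900 of 3541 were above background on neither array.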

Other observations

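A further 21 probes carry an AK accession in both name columns but no position in the files, so that they fall outside the rule. Of these, 6 were measured, with a median difference of -0.12 and none past 2-fold in either direction.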
